A study of Mus musculus with 4 samples.

Results

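The genes examined here encode aminoacyl-tRNA synthetases, the enzymes that join each amino acid to its tRNA before translation. Members were taken by symbol, and 35 of 36 symbols were found among the 21091 entries of the expression tables, 19 for cytosolic and 16 for mitochondrial enzymes. The remaining symbol, *Aars*, occurs only in an entry joined with *Exosc6*. RNA-seq of C57BL/6 mouse neural progenitors, with 4 groups and a single library for each, was carried out to compare control (CTL, labelled WT) and *Stat3* cKO cells isolated at embryonic day 11 (E11) or 14 (E14). *Stat3* cKO is a conditional deletion driven by Nes-cre, a Cre transgene under a rat Nestin promoter that acts in neural progenitors, and it removes the exons of the SH2 domain of STAT3. All 4 groups had been kept for 3 days in suspension culture with EGF and FGF. The labels and the RNA-seq methods call the control wild-type, whereas the animal methods give Nestin-Cre embryos with 1 floxed *Stat3* allele, so whether the CTL cells carried Cre is not settled by these sources. How many embryos went into a library is not given.

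Each tRNA must carry the right amino acid, and each synthetase serves 1 amino acid, except EPRS, which charges both glutamate and proline tRNAs. The cytosol and the mitochondria use separate sets, both encoded in the nucleus, and most genes for the mitochondrial set have symbols ending in 2. *Gars* and *Kars* encode enzymes for both compartments, and mitochondria lack a glutamine enzyme and make that tRNA by amidation of glutamyl-tRNA. Several cytosolic enzymes are held in a multisynthetase complex with 3 scaffold proteins. The stress-induced transcription factor ATF4 is known to raise transcription of many cytosolic synthetase genes when amino acids are short. Mutations in mitochondrial synthetase genes such as *Rars2* and *Ears2* cause brain disease, and mutations in *Gars* and *Yars* cause peripheral neuropathy.

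Levels are FPKM as deposited, that is fragment numbers corrected for transcript length and for the mapped fragments of the library. With 1 library per group the error of a level is unknown, and no test was run. Fold changes are plain ratios of 2 libraries, taken where the 4 libraries averaged 1 FPKM or more, as 12449 entries and all 35 members did. Each library enters 1 stage comparison and 1 genotype comparison, so these are not independent of each other. Fragment counts are unknown, and the smallest values in each library gave relative depths from 0.835 to 1.07, with E14 *Stat3* cKO set to 1. *Stat3* itself was at 7.41 FPKM in CTL against 6.74 in *Stat3* cKO at E11, and 27.6 against 9.55 at E14, so its own level was lower in cKO mainly at E14. All 10 neural progenitor markers reached 1 FPKM in every library, and they summed to 1511 FPKM in CTL against 1703 in *Stat3* cKO at E11, and to 7329 against 7976 at E14. All 7 mesenchymal markers did so in both E11 libraries, summing to 1326 FPKM in CTL against 1171 in *Stat3* cKO, and at E14 they summed to 15.9 against 10.4. Oligodendrocyte lineage markers summed to 73.0 against 94.2 FPKM at E11 and 567 against 550 at E14, astrocyte markers to 161 against 195 and 295 against 404, and neuron markers to 793 against 825 and 1246 against 1025. Such sums follow their highest genes. At E14, 5 of 7 oligodendrocyte lineage markers were higher in *Stat3* cKO, where 39.9% of all genes were. In CTL the astrocyte marker *Aldoc* went from 2.69 FPKM at E11 to 193 at E14, and *Gja1* from 138 to 13.1. Microglia markers summed to at most 9.58 FPKM, endothelial markers to 5.36 and erythroid markers to 24.6, each in E11 CTL. Among Y-linked genes *Ddx3y* was listed at 0 at E11, at 0.0569 FPKM in E14 CTL and at 25.1 with the cKO at E14. *Xist* had a log2 genotype ratio of -8.52 at E14. The E14 libraries thus differ in sex-linked transcripts, which cannot be told apart from genotype at E14, or from stage in *Stat3* cKO. No member lies on a sex chromosome, and whether member levels vary with sex was not tested.

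Cytosolic synthetase genes were expressed well above mitochondrial ones. In E11 CTL the 19 cytosolic genes ranged from 35.2 FPKM for *Farsa* to 216 for *Gars*, with a median of 64.9. Their median was 57.4 in *Stat3* cKO of that stage, and at E14 it was 59.1 in CTL against 40.9. Without *Lars2*, which stands apart and is described separately, the 15 mitochondrial genes had medians of 5.99 against 6.38 FPKM at E11 and 13.4 against 10.1 at E14. *Wars2*, for mitochondrial tryptophan, was the lowest of them in every library, from 3.14 to 4.61 FPKM, and *Iars2*, for isoleucine, was the highest, from 19.7 to 47.3 FPKM.

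**Figure D1:**
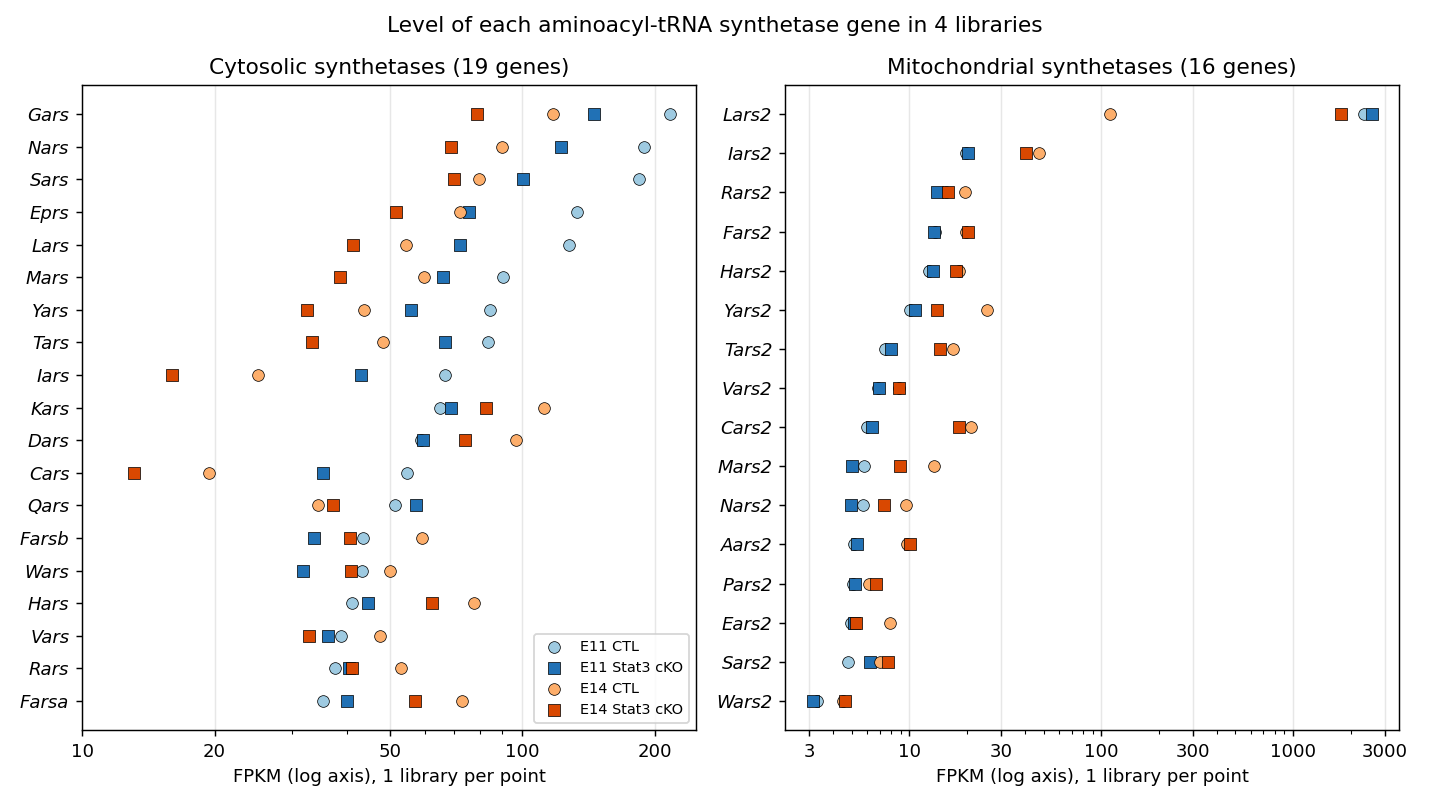
FPKM on a log axis for each cytosolic (left) and mitochondrial (right) synthetase gene, 1 point for each of the 4 libraries, with genes ordered by E11 CTL. *Gars* leads the cytosolic set at 216 FPKM in E11 CTL, and *Lars2* lies at 111 FPKM in E14 CTL but from 1782 to 2558 in the other libraries.

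From E11 to E14 the cytosolic genes split. In CTL, 5 of 19 were at least 2-fold lower at E14 (*Cars*, *Iars*, *Lars*, *Nars* and *Sars*), where 12.5% of all genes were, and *Farsa* alone was at least 2-fold higher, where 14.6% were, though not under upper-quartile scaling, at 0.71 on the log2 scale. That scaling and centring all genes on their median each gave 9 cytosolic genes at least 2-fold lower in CTL, with *Eprs*, *Gars*, *Tars* and *Yars* added, where 17.6% and 15.3% of all genes then were, and none higher, where 7.56% and 9.73% were. In *Stat3* cKO, 3 were at least 2-fold lower (*Cars*, *Iars* and *Tars*), against 11.7% of all genes, and none was 2-fold higher, against 10.1%. *Tars* lies at the limit and lost this call when 0.1 or 1 FPKM was added to all values. Counting every ratio below or above 1, 11 were lower and 8 higher in CTL, where 39.5% and 60.5% of all genes were, and 12 were lower and 7 higher in *Stat3* cKO, where 46.7% and 53.3% were. In CTL the median was -0.59 on the log2 scale, with 0.21 over all genes, and in *Stat3* cKO it was -0.55, with 0.058 over all genes. In both genotypes 11 of 19 were lower at E14, against 34.4% of all genes, and 7 were higher, against 48.3%. Upper-quartile scaling of the libraries shifted the median of all genes by -0.34 in CTL and -0.064 in *Stat3* cKO, which left 13 lower and 6 higher in each genotype, with *Vars* and *Wars* changing direction in CTL and *Rars* in *Stat3* cKO. The summed neural progenitor, mesenchymal, oligodendrocyte lineage, astrocyte and neuron markers also differed between the stages, as given above, and their part in these ratios was not tested. In cell mixtures such as these, fewer cells of a type and less RNA per cell cannot be told apart.

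Between genotypes, cytosolic synthetase genes were mostly lower in *Stat3* cKO. At E14, 18 of 19 had a ratio below 1 and 1 above it, where 60.1% and 39.9% of all genes did, and the median log2 ratio was -0.43 against -0.079 over all genes. *Iars* and *Mars* were at least 1.5-fold lower, a share of the list close to the 7.67% of all genes, and neither was under upper-quartile scaling, at -0.49 and -0.48 on the log2 scale. Astrocyte markers at E14 summed to 295 FPKM in CTL against 404 in *Stat3* cKO and neuron markers to 1246 against 1025, and their part in the E14 ratios was not tested. The difference in sex-linked transcripts between the E14 libraries cannot be told apart from genotype in these ratios. At E11, 13 of 19 had a ratio below 1 and 6 above it, where 38.2% and 61.8% of all genes did, and the median was -0.44 against 0.059. *Cars*, *Eprs*, *Iars*, *Lars*, *Nars*, *Sars* and *Yars* were at least 1.5-fold lower at E11, 7 of 19 members where 3.66% of all genes were. No cytosolic member differed 2-fold between genotypes in either direction at either stage, where 1.69% of all genes were lower and 1.85% higher at E14, and 1.12% and 0.209% at E11. Upper-quartile scaling gave medians of -0.28 at E14 and -0.57 at E11, with 18 and 17 of the 19 below 1, and the genes whose direction at E11 changed were *Dars*, *Hars*, *Kars* and *Rars*. At both stages 13 of 19 were lower in *Stat3* cKO, where 21.5% of all genes were, and *Qars* alone was higher, where 23.1% were. Erythroid markers, of which 4 of 6 are listed, summed to 24.6 FPKM in CTL against 3.62 in *Stat3* cKO at E11, and their part in the E11 ratios was not tested.

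Enzymes of the multisynthetase complex held both patterns. *Eprs*, for glutamate and proline, on chromosome 1 from 187186973 to 187252234 as listed, had 133 FPKM in CTL against 75.6 in *Stat3* cKO at E11, and 72.1 against 51.7 at E14. *Lars*, for leucine, had 127 against 72.1 FPKM at E11 and 54.4 against 41.2 at E14, and *Iars*, for isoleucine, had 66.6 against 43.1 at E11 and 25.1 against 16.02 at E14. Each of these 3 was highest in E11 CTL and lowest in E14 *Stat3* cKO. E11 *Stat3* cKO had 0.57 times the CTL level of *Eprs* and 0.567 times that of *Lars*. *Iars* was 0.376 times its E11 level at E14 in CTL and 0.372 times in *Stat3* cKO. *Mars*, for methionine, had 90.3 against 66.0 FPKM at E11 and 59.8 against 38.6 at E14, in the same descending order. It is listed at the same position as *Ddit3*, and whether fragments were assigned between overlapping genes by strand is not given.

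The other enzymes of the complex did not follow that order. *Kars*, for lysine, had 64.9 FPKM in CTL against 68.7 in *Stat3* cKO at E11, and 112 against 82.5 at E14. *Dars*, for aspartate, had 59.0 against 59.6 FPKM at E11 and 96.5 against 74.1 at E14, and *Rars*, for arginine, had 37.6 against 40.4 at E11 and 53.1 against 40.9 at E14. All 3 were near equal between genotypes at E11 and highest in E14 CTL. Their log2 genotype ratios at E14 were -0.44 for *Kars*, -0.38 for *Dars* and -0.37 for *Rars*. *Qars*, for glutamine, was the 1 cytosolic gene with a higher level in *Stat3* cKO at both stages, at 51.3 and 57.4 FPKM at E11 and 34.4 and 37.2 at E14. Its ratios of 1.12 and 1.08 are small, and under upper-quartile scaling they kept their direction.

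Of the 3 scaffold genes of the complex, *Eef1e1* and *Aimp2* were highest in E14 CTL with small genotype differences at E11, and *Aimp1* was not of this kind. *Eef1e1*, which encodes the scaffold AIMP3, had 41.3 FPKM in CTL against 42.02 in *Stat3* cKO at E11, and 99.1 against 60.2 at E14. *Aimp2* had 20.1 against 23.9 FPKM at E11 and 47.3 against 27.0 at E14. The stages of CTL thus differed more than 2-fold for both, with log2 ratios of 1.26 and 1.24, while those of *Stat3* cKO differed by 0.52 and 0.17. Under upper-quartile scaling the CTL ratios were 0.92 for *Eef1e1* and 0.90 for *Aimp2*, below 2-fold. *Aimp1* had 74.6 against 58.9 FPKM at E11 and 90.4 against 80.8 at E14, with log2 genotype ratios of -0.34 and -0.16. *Aimp2* is listed at the same position as the kinase gene *Eif2ak1*, as *Mars* is with *Ddit3*.

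Among cytosolic enzymes outside the complex, *Gars*, for glycine, on chromosome 6 from 54987994 to 55029498 as listed, had 216 FPKM in CTL against 145 in *Stat3* cKO at E11, and 117 against 78.7 at E14. *Nars*, for asparagine, had 189 against 122 FPKM at E11 and 89.9 against 69.0 at E14. *Sars*, for serine, had 184 against 101 FPKM at E11 and 79.8 against 70.0 at E14, and its log2 genotype ratio of -0.87 was the lowest of any member at E11. The order of the libraries was the same in each. *Cars*, for cysteine, had 54.7 against 35.3 FPKM at E11 and 19.4 against 13.1 at E14, the largest stage difference of the cytosolic set in CTL, at 0.354 times the E11 level. *Yars*, for tyrosine, had 84.4 against 56.0 FPKM at E11 and 43.7 against 32.5 at E14, and *Tars*, for threonine, had 83.6 against 66.6 at E11 and 48.3 against 33.3 at E14. These also descended from E11 CTL to E14 *Stat3* cKO.

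The phenylalanine and histidine enzymes went the other way with stage. *Farsa*, which encodes the alpha subunit of the phenylalanine enzyme, had 35.2 FPKM in CTL against 39.98 in *Stat3* cKO at E11, and 72.8 against 57.2 at E14. *Farsb*, for its beta subunit, had 43.4 against 33.7 FPKM at E11 and 59.1 against 40.6 at E14. The subunit genes thus had log2 genotype ratios of 0.18 and -0.37 at E11, and of -0.35 and -0.54 at E14. *Hars*, for histidine, had 41.1 against 44.7 FPKM at E11 and 77.6 against 62.5 at E14 and was at 1.89 times its E11 level at E14 in CTL. The valine enzyme gene *Vars* had 38.7 against 36.1 FPKM at E11 and 47.6 against 32.7 at E14, and the interferon-inducible tryptophan enzyme gene *Wars* had 43.2 against 31.8 at E11 and 50.1 against 40.7 at E14. Their stage ratios in CTL, 0.30 and 0.21 on the log2 scale, were below 0 under upper-quartile scaling. *Hars* and *Hars2* are listed side by side on chromosome 18, and whether fragments were counted by strand is not given.

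The joined entry of *Aars*, for alanine, with *Exosc6* had 111 FPKM in CTL against 69.8 in *Stat3* cKO at E11, and 54.5 against 41.98 at E14. Its fragments cannot be divided between the genes, and it was left out of all counts.

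**Figure D2:**
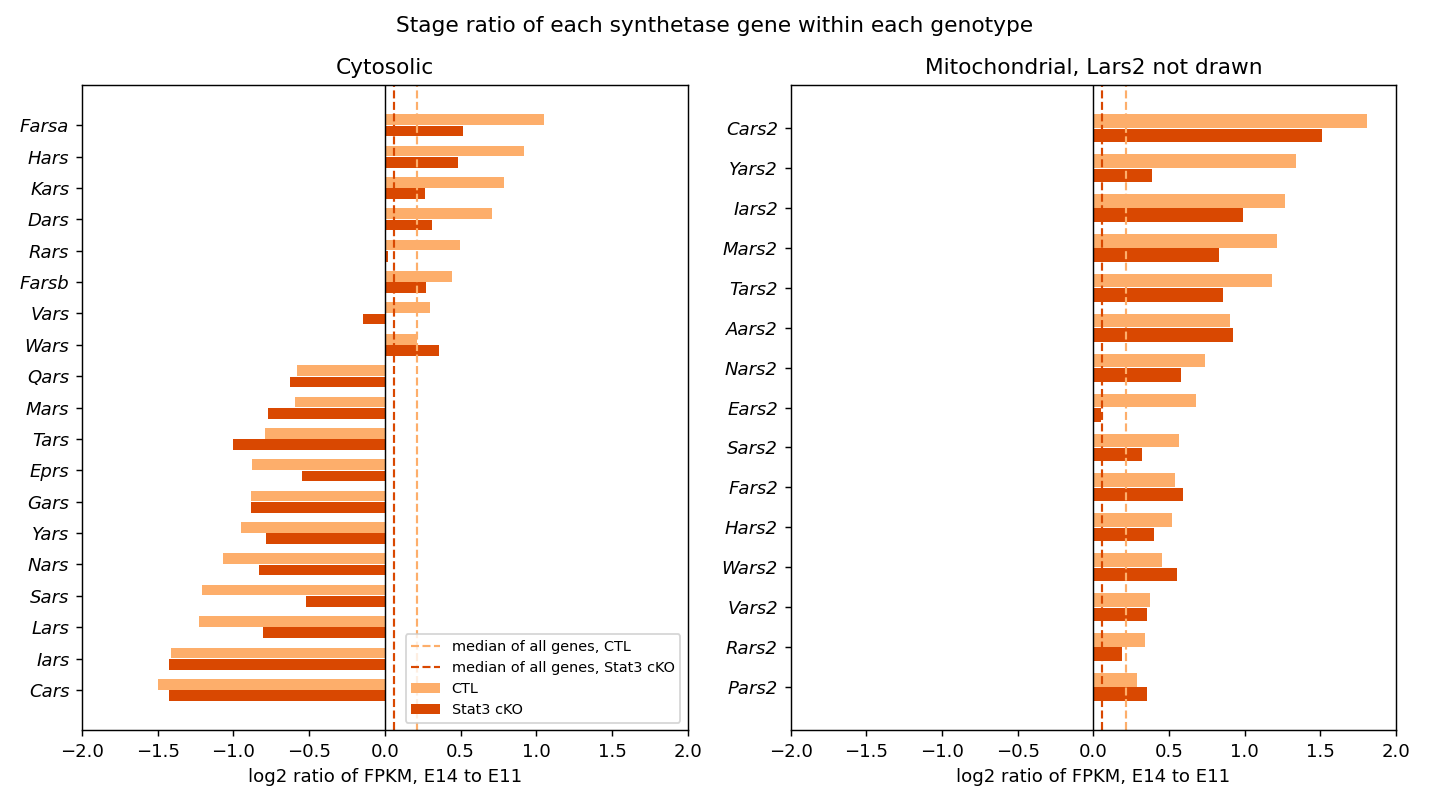
Log2 ratio of FPKM at E14 to E11 for each cytosolic (left) and mitochondrial (right) gene, with bars for CTL and *Stat3* cKO and dashed lines at the medians of all genes, 0.21 and 0.058. Of 19 cytosolic genes 11 lie below 0 in both genotypes, down to *Cars* and *Iars*, while all 15 mitochondrial genes drawn lie above 0.

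Promoter sequences were read for 25 of the 35 members from RefSeq, build GRCm38.p6, from 250 bases before to 50 bases after the start site. Those for *Cars*, *Hars*, *Lars*, *Mars*, *Nars*, *Rars*, *Vars*, *Wars*, *Hars2* and *Pars2* were not used here. The letters TGATGNAA, the core of the element that ATF4 binds together with C/EBP proteins, were searched on both strands. They were found in 4 of 11 cytosolic and in 0 of 14 mitochondrial genes with a promoter, in 9 of 27 promoter-matched genes of an ATF4 response list, and in 3.97% of the 32851 promoters. The 4 cytosolic genes, *Gars*, *Iars*, *Tars* and *Yars*, are all among the 11 that were lower at E14 in both genotypes, of which 7 have a promoter. Of the cytosolic genes higher at E14 in both, none of the 4 with a promoter held the letters. The matches are shown because they mark what these promoters share, in 30 bases written 5′ to 3′ on the strand that carries the letters, which are in capitals.
*Gars*, chr6:55037960-55037989, minus strand: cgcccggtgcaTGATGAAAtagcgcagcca
*Iars*, chr13:49682126-49682155, minus strand: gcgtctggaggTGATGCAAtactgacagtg
*Tars*, chr15:11399655-11399684, plus strand: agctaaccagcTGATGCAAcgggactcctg
*Yars*, chr4:129189895-129189924, plus strand: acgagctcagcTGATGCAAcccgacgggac
In *Gars* the letters lie 23 to 30 bases and in *Tars* 8 to 15 bases before the start site, and in *Iars* and *Yars* they begin 8 and 4 bases into the transcribed sequence. The STAT motif TTCNNNGAA, which reads the same on both strands, was found in *Kars* and *Nars2* alone among the 25, in 5 of 27 genes of the ATF4 response list, and in 8.3% of all promoters.
*Kars*, chr8:112011344-112011373, minus strand: cccgccctctTTCCCGGAAgaggcaggact
*Nars2*, chr7:96951370-96951399, plus strand: cagtagctatTTCTGAGAAacctgagacag
It lies 1 to 9 bases before the start site of *Kars* and 139 to 147 bases before that of *Nars2*. A match in letters is a description and not a bound site.

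Mitochondrial synthetase genes were higher at E14 than at E11. In both genotypes 15 of 16 had a ratio above 1, against 48.3% of all genes, and *Lars2* was the exception. In CTL, 5 were at least 2-fold higher (*Cars2*, *Yars2*, *Iars2*, *Mars2* and *Tars2*), where 14.6% of all genes were, and in *Stat3* cKO *Cars2* alone was, where 10.1% were. At the limit of 1.5-fold, 8 of 16 were higher in CTL, where 30.3% of all genes were, and under upper-quartile scaling 5 were, where 16.7% were. In CTL the log2 ratios of all 16 had a median of 0.62, or 0.68 without *Lars2*, and in *Stat3* cKO of 0.48, or 0.55 without *Lars2*. Under upper-quartile scaling these medians of the 16 were 0.29 and 0.41, and *Pars2* in CTL and *Ears2* in *Stat3* cKO then lay below 1. In CTL upper-quartile scaling left *Cars2* and *Yars2* at least 2-fold higher, where 7.56% of all genes were, and centring left *Iars2* too, where 9.73% were. The marker sums given above also differed between the stages, and their part in the mitochondrial ratios was not tested.

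*Cars2*, for cysteine, had the largest stage ratio of the set in both genotypes. It had 5.99 FPKM in CTL against 6.38 in *Stat3* cKO at E11, and 21.0 against 18.1 at E14. *Iars2* had 19.7 against 20.3 FPKM at E11 and 47.3 against 40.3 at E14, and the threonine gene *Tars2* had 7.47 against 8.004 at E11 and 16.9 against 14.5 at E14. The 2 libraries of each stage lay close together and the stages did not overlap. *Cars2* at E14 was 3.5 times its E11 level in CTL and 2.84 times in *Stat3* cKO. *Aars2*, for alanine, had 5.16 against 5.34 FPKM at E11 and 9.67 against 10.1 at E14, and was also near equal between genotypes. *Fars2*, *Hars2* and *Rars2*, for phenylalanine, histidine and arginine, lay between 12.6 and 20.3 FPKM in all 4 libraries. *Pars2*, *Sars2* and *Vars2*, for proline, serine and valine, lay between 4.78 and 8.86 FPKM.

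Genotype differences among mitochondrial genes were small at E11. There, all 15 without *Lars2* had log2 ratios from -0.21 for *Nars2* to 0.38 for *Sars2*, and none of them was 1.5-fold lower or higher, where 3.66% and 2.18% of all genes were. At E14, *Yars2* and *Mars2* were lower in *Stat3* cKO by 1.5-fold or more, where 7.67% of all genes were, and under upper-quartile scaling *Yars2* kept this call at -0.72 on the log2 scale while *Mars2*, at -0.44, did not. *Yars2*, for tyrosine, on chromosome 16 from 16303057 to 16309733 as listed, had 10.1 FPKM in CTL against 10.7 in *Stat3* cKO at E11, and 25.5 against 13.9 at E14. *Mars2*, for methionine, had 5.77 against 5.00 FPKM at E11 and 13.4 against 8.89 at E14, and *Ears2*, for glutamate, had 4.95 against 5.12 at E11 and 7.94 against 5.30 at E14. In these 3 genes E14 CTL stood above the other libraries, and the log2 genotype ratios at E14 were -0.87, -0.59 and -0.58. The remaining mitochondrial genes apart from *Lars2* had E14 genotype ratios between -0.37 for *Nars2* and 0.13 for *Sars2*. Over all 16 the median was -0.13 at E14 and 0.047 at E11, and under upper-quartile scaling it was 0.026 and -0.076, so no direction is given for the set. The change of sign at E14 depends on counting *Lars2*. Without it the E14 median, which is the value of *Cars2*, was -0.21, and -0.059 under upper-quartile scaling. Of these 15 genes 10 had a ratio below 1 at E14, where 60.1% of all genes did.

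*Lars2*, the gene for the mitochondrial leucine enzyme, on chromosome 9 from 123276057 to 123371782 as listed, had 2331 FPKM in CTL against 2558 in *Stat3* cKO at E11, and 111 against 1782 at E14. E14 CTL thus stood alone, 16.1-fold below E14 *Stat3* cKO and 21-fold below E11 CTL. *Lars2* was the 1 member whose E14 level in *Stat3* cKO exceeded that in CTL 1.5-fold or more, as did 5.82% of all genes. Among 1742 entries with a mean of at least 50 FPKM and a ratio, the E14 genotype ratio of *Lars2* ranked first. In the other 3 libraries *Lars2* ranked between 17 and 71 of all entries, and its level was from 44.2 to 126 times that of the next mitochondrial synthetase gene, while in E14 CTL it was 2.34 times. For the cytosolic gene *Lars* the E14 genotype ratio was 0.758. Ribosomal RNA listed as *Rn45s* was at 0 against 7780 FPKM at E11 and 4154 against 5674 at E14. Which sequence the fragments listed under *Lars2* came from was not tested, and its value is not read as a level of the enzyme's mRNA.

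Genes that work beside the mitochondrial enzymes were compared in the same libraries. Glutaminyl-tRNA in mitochondria is made by an amidotransferase of 3 subunits. Its gene *Qrsl1* had 6.32 FPKM in CTL against 6.63 in *Stat3* cKO at E11, and 11.5 against 7.32 at E14, an order like that of *Ears2*, which supplies its substrate. *Pet112* had 4.16 against 4.20 FPKM at E11 and 9.49 against 9.76 at E14, and *Gatc* had 8.90 against 9.77 at E11 and 6.51 against 9.19 at E14. The 3 subunit genes thus differed in their pattern. Of 11 mitochondrial translation factor genes all were higher at E14 in CTL, where 60.5% of all genes were, with a median log2 ratio of 0.61. In *Stat3* cKO 9 were, where 53.3% of all genes were, with 0.37. The lowest of them in CTL, 0.25 for *Gfm2*, is smaller than the shift of -0.34 from upper-quartile scaling. The elongation factor genes *Gfm1* and *Tsfm* were the 2 that passed 2-fold in CTL, where 14.6% of all genes did, from 13.6 to 36.5 FPKM and from 17.4 to 41.5, and *Tsfm* did not under upper-quartile scaling, at 0.92 on the log2 scale.

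Cytosolic and mitochondrial genes for the same amino acid were then compared within each library, which removes any scaling between libraries. Over 13 pairs without leucine, counting *Farsa* and *Farsb* each against *Fars2*, the cytosolic gene had a median of 8.36 times the mitochondrial level in CTL against 5.25 times in *Stat3* cKO at E11, and 3.68 against 2.81 times at E14. In both E11 libraries the cytosolic gene was the higher of the pair in all 13, and in both E14 libraries in 11 of 13. The exceptions were isoleucine, where *Iars* was 3.38 times *Iars2* in E11 CTL and 0.53 times in E14 CTL, and cysteine, where *Cars* was 9.13 times *Cars2* in E11 CTL and 0.923 times in E14 CTL.

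Within these pairs the ratio was lower at E14 in 10 of 13 in CTL and in 12 of 13 in *Stat3* cKO. It was lower in *Stat3* cKO than in CTL in 10 of 13 pairs at E11 and in 12 of 13 at E14. The serine pair had the largest genotype difference at E11, where *Sars* was 38.5 times *Sars2* in CTL and 16.2 times in *Stat3* cKO. The tyrosine pair was the exception at E14, at 1.71 in CTL and 2.33 in *Stat3* cKO, with E14 genotype ratios of 0.546 for *Yars2* and 0.743 for *Yars*. The arginine pair varied least, from 2.43 to 2.91 over the 4 libraries.

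**Figure D3:**
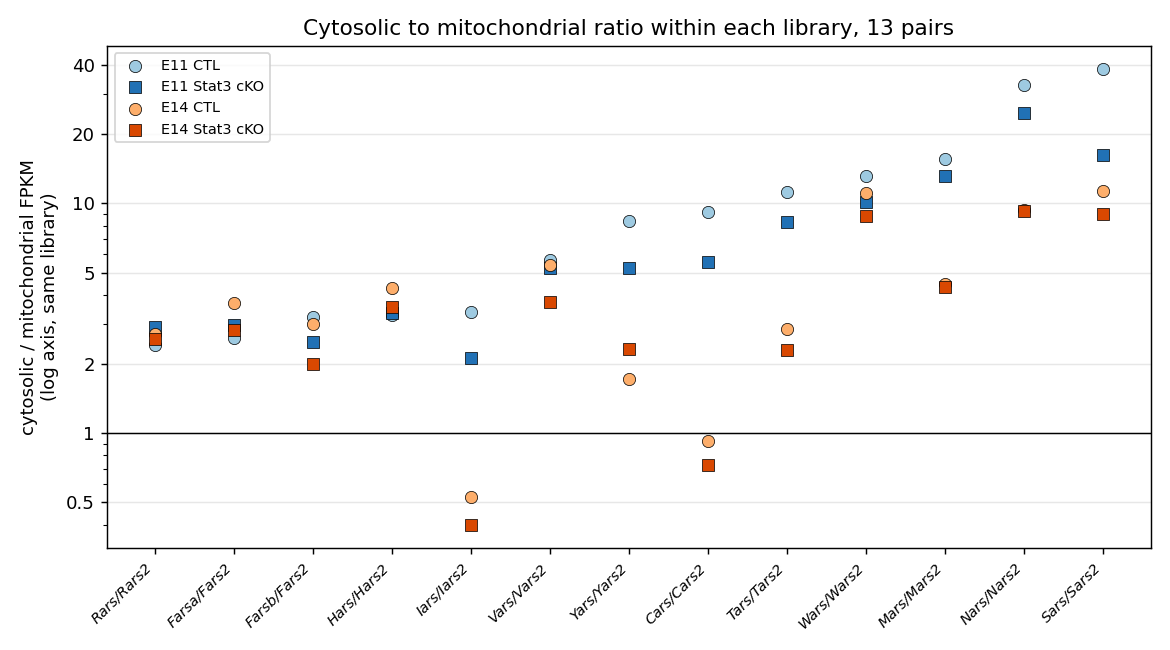
Cytosolic FPKM divided by mitochondrial FPKM in the same library, on a log axis, for 13 pairs ordered by E11 CTL, with 1 point for each of the 4 libraries. Pairs such as *Cars*/*Cars2* and *Iars*/*Iars2* cross from above 1 at E11 to below 1 at E14, whereas *Rars*/*Rars2* stays from 2.43 to 2.91.

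Since ATF4 is known to act on cytosolic synthetase genes, a list of 30 genes of the ATF4 response was set beside them. *Atf4* itself had 310 FPKM in CTL against 208 in *Stat3* cKO at E11, and 113 against 76.4 at E14. The part of ATF4 in the synthetase ratios was not tested. *Asns*, which encodes asparagine synthetase, had 286 against 141 FPKM at E11 and 55.6 against 33.1 at E14. *Xpot*, which encodes the exporter of tRNA from the nucleus, had 57.1 against 34.1 FPKM at E11 and 32.1 against 21.6 at E14. At E14 in CTL, 23 of the 30 were at least 2-fold lower than at E11, and in *Stat3* cKO 19 were, where 12.5% and 11.7% of all genes were. The medians on the log2 scale were -1.82 and -1.35. The mesenchymal markers were lower at E14 in the same libraries, from 1326 to 15.9 FPKM in CTL and from 1171 to 10.4 in *Stat3* cKO, and their part in these ratios was not tested. In CTL this median lies below the lowest cytosolic synthetase ratio, -1.50 for *Cars*, whereas in *Stat3* cKO *Cars* and *Iars*, at -1.43 each, lie below it.

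Between genotypes at E11, 28 of the 30 were lower in *Stat3* cKO, where 38.2% of all genes were, by a median of -0.81 on the log2 scale, and 9 were at least 2-fold lower, where 1.12% of all genes were. They included the transcription factor genes *Cebpb*, from 17.1 FPKM in CTL to 3.02 in *Stat3* cKO, *Atf5*, from 99.8 to 19.4, and *Ddit3*, from 93.3 to 32.2. The stress-induced gene *Nupr1* had 71.4 and 12.9 FPKM, *Slc7a3*, for a transporter of cationic amino acids, 72.8 and 14.4, and *Trib3* 24.7 and 7.76. *Cth* and *Psph*, enzymes of cysteine and serine synthesis, had 41.1 and 13.3 FPKM and 63.2 and 28.1, with *Asns* the last of the 9. At E11 erythroid markers summed to 24.6 FPKM in CTL against 3.62 in *Stat3* cKO, and microglia markers to 9.58 against 6.46. Their part in the E11 ratios of this list was not tested. At E14 the list was mixed, with a median of -0.19 and 21 of 30 lower, near the 60.1% of all genes. *Mthfd2*, of mitochondrial folate metabolism, had 30.9 FPKM in CTL against 10.9 in *Stat3* cKO, *Slc7a1* had 5.01 against 1.93, and *Ddit4* had 25.8 against 55.9. Genes of the kinases that sense amino acids or other stress differed less than 1.5-fold between genotypes. *Eif2ak4*, which encodes the amino acid sensor GCN2, had 6.43 against 6.54 FPKM at E11 and 6.03 against 5.21 at E14, and *Eif2ak1*, *Eif2ak2*, *Eif2ak3* and *Mtor* had log2 genotype ratios from -0.34 to 0.22 over both stages.

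**Figure D4:**
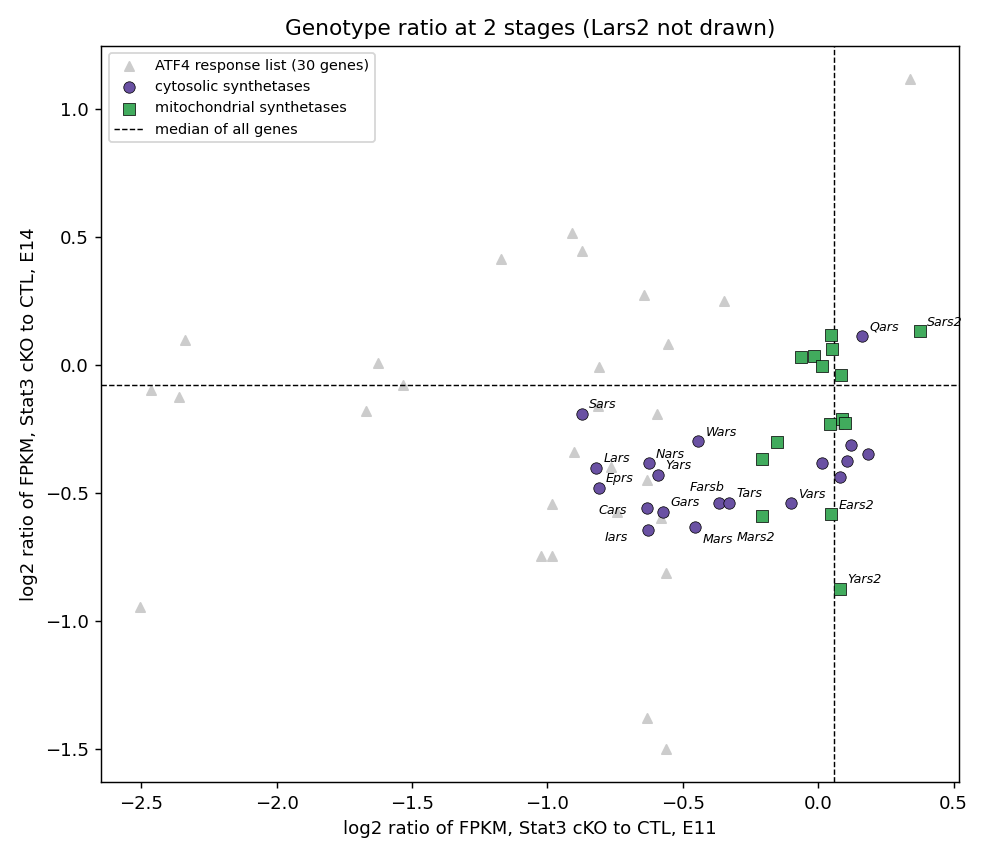
Log2 genotype ratio, *Stat3* cKO over CTL, with E11 on the horizontal and E14 on the vertical axis, for each synthetase gene except *Lars2*, with the 30 ATF4 response genes in grey and dashed lines at the medians of all genes, 0.059 and -0.079. Cytosolic genes reach from 0.18 for *Farsa* to -0.87 for *Sars* at E11, whereas mitochondrial genes spread mainly along the E14 axis, down to -0.87 for *Yars2*.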

How the data were processed

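Libraries were sequenced on an Illumina HiSeq system and, per the paper's methods, checked with FastQC and processed by the authors with the TopHat and Cufflinks workflow, whose versions and annotation are not given in the sources used here. The submitters' processing notes name Bowtie 0.12.2 and the builds mm8 and mm9. The authors deposited 1 FPKM value per entry and library, which corrects for transcript length and mapped fragments; further scaling is not stated. Of 34 members matched in GRCm38, 2 start within 1000 bases of their listed position, so gene coordinates are given as listed and promoter coordinates as GRCm38.p6.

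Plain ratios without a pseudocount were taken over entries with a mean of at least 1 FPKM, and entries at 0 in either library were given none. Calls were set at 2-fold, with 1.5-fold as the lower limit. Relative depth was the most frequent ratio among values under 0.08 FPKM in both libraries. With 1 library per group, no test was run. Named were all members, genes of the scaffold, amidotransferase and kinase lists, genes of other lists past 2-fold between genotypes, and, chosen after their values were seen, *Atf4*, *Xpot*, *Gfm1*, *Gfm2*, *Tsfm*, *Eif2s1*, *Eif2s3x* and *Eif1ax*. Members and lists were chosen with earlier results of these data known. Alternatives were pseudocounts of 0.1 and 1, centring all genes on their median, upper-quartile scaling, a minimum mean of 5 FPKM or none, the 1.5-fold limit, and leaving out *Lars2*, or *Gars* and *Kars*. The steps were tested on simulated data. Python 3.11.15, numpy 2.4.6, pandas 2.3.3 and matplotlib 3.10.9 were used.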

Additional observations from a re-analysis of the deposited data

Results flagged for a closer look

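Over the 16 mitochondrial synthetase genes, *Stat3* cKO differed from CTL by a median of 0.047 at E11 and -0.126 at E14 on the log2 scale, and was singled out because the stages lie on opposite sides of 0. The medians of all genes do so too, at 0.059 and -0.079. With 1 library per group this difference was not tested. Of the 16 genes, 9 had opposite signs at the 2 stages, close to the share of all genes, of which 21.5% were below and 23.1% above 0 at both, and the largest such difference was that of *Yars2*, at 0.080 and -0.87.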

How the results depend on the processing

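No paired analysis was possible because each group holds 1 library and the numbers do not pair samples. A median counted as moved only when it shifted by more than 1.5-fold. Upper-quartile scaling shifts all genes of a comparison alike, at most by -0.34 on the log2 scale, from E11 to E14 in CTL. It could not pass this limit, so no stability of size is read from the label. Of 56 recomputed medians 53 kept their sign, though the mitochondrial median from E11 to E14 in CTL went from 0.62 to 0.29 with that scaling. The exceptions were those of the 16 mitochondrial genes between genotypes, with *Lars2* counted. They were at 0.026 for E14 and -0.076 for E11 with upper-quartile scaling, and at -0.012 for E11 after centring all genes on their median. From E11 to E14 in CTL, both scalings gave 9 cytosolic genes at least 2-fold lower and 0 higher, while 3 mitochondrial genes were 2-fold higher with the centred median and 2 with upper-quartile scaling. Without *Lars2*, 0 mitochondrial genes were 2-fold higher between genotypes at E14 and 0 were 2-fold lower from E11 to E14 in CTL. With the limit at 1.5-fold, cytosolic genes lower in *Stat3* cKO numbered 2 at E14 and 7 at E11, and mitochondrial ones 2 at E14. From E11 to E14 the same limit gave 4 cytosolic genes higher and 10 lower and 8 mitochondrial genes higher in CTL, and 9 cytosolic lower and 6 mitochondrial higher in *Stat3* cKO, where 30.3% of all genes were higher and 18.9% lower in CTL, and 21.6% and 20.1% in *Stat3* cKO. These counts follow from the settings themselves. Pseudocounts, minimum means and leaving out *Gars* and *Kars* moved no median or count of 2-fold calls by more than 1.5 times, though both pseudocounts took *Tars* out of the 3 cytosolic genes at least 2-fold lower at E14 in *Stat3* cKO, leaving 2. Fragment counts are unknown, so no counting error can be given for the low mitochondrial levels.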

Other observations

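Synthetases form 2 structural classes that differ in the fold of their catalytic domain, and *Eprs*, whose enzyme joins one of each, was left out of both. Over the 18 class I genes E14 differed from E11 in CTL by a median of 0.32 on the log2 scale, and over the 16 class II genes by 0.55. At least 2-fold lower were 4 and 2 genes, where 12.5% of all genes were, with *Lars2* among the 4 of class I. Again 4 and 2 were at least 2-fold higher, where 14.6% of all genes were. Under upper-quartile scaling the medians were -0.019 and 0.22, so no direction is given for class I, whose list holds *Lars2*. With that scaling 2 and 0 genes were 2-fold higher, where 7.56% of all genes were, and 5 and 4 lower, where 17.6% were. Between genotypes the class medians were -0.39 and -0.33 at E14 and -0.083 and 0.031 at E11, the last being -0.092 under upper-quartile scaling.

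Other genes of cytosolic translation were compared in the same way. Of 32 initiation factor genes, 25 were higher at E14 in CTL, where 60.5% of all genes were. The median was 0.46 on the log2 scale, against 0.21 over all genes. Some of these ratios, from 0.011 for *Eif4g2* to 0.33 for *Eif3e*, are smaller than the shift of -0.34 from upper-quartile scaling. In *Stat3* cKO 19 were higher, by a median of 0.13, a share near the 53.3% of all genes. Of 5 elongation factor genes 4 were higher at E14 in CTL, where 60.5% of all genes were, with a median of 0.45 against 0.21 over all genes. Of these, the ratio of *Eef1a1*, 0.25, is smaller than the upper-quartile shift of -0.34. Between genotypes at E14, 30 of the 32 initiation factor genes were lower in *Stat3* cKO, where 60.1% of all genes were, with a median of -0.35, against -0.079 over all genes, and *Eif2s1*, for a subunit of the factor that the ATF4 pathway kinases phosphorylate, lowest at -0.96. The list holds the X-linked genes *Eif2s3x*, at -0.93, and *Eif1ax*, at -0.45, and the E14 libraries differ in sex-linked transcripts, with *Xist* at 13.6 FPKM in CTL against 0.037 in *Stat3* cKO. The part of this difference in the list's ratios was not tested. At E11 the initiation factor median was 0.073, near the 0.059 of all genes, with 24 of 32 higher, where 61.8% of all genes were, and this median is smaller than the shift of -0.12 from upper-quartile scaling.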
